A study of Mus musculus with 4 samples.

Results

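RSRP1, GEMIN2 and ZFP36L2 encode proteins linked to RNA splicing or to mRNA decay, and their transcripts were followed here in breast tumors with or without an shRNA against the protein acyltransferase DHHC3. The 3 genes were selected on their measured values, because the difference between DHHC3-ablated and control tumors had already been seen for them, and every probe set annotated with exactly 1 of these symbols was kept. This gave 4 probe sets, 1 for RSRP1 (209006_s_at), 1 for ZFP36L2 (201368_at) and 2 for GEMIN2 (211114_x_at and 211115_x_at), among 137 probe sets that hold 99 genes with 1 symbol. Since the choice used the same contrast, the values are given as a description, with no test and no p-value.

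The tumors were xenografts of MDA-MB-231, a human triple-negative breast cancer line, placed in the mammary fat pad of female athymic nude mice of the genotype Crl:NU(NCr)-Foxn1nu, which lack mature T cells but keep B cells, natural killer cells and macrophages. The tumor cells carried either a control shRNA or an shRNA against DHHC3, a palmitoyltransferase encoded by ZDHHC3. Each kind of cell was given in 10 injections, tumor volume was followed for 30 days, and the labels give a tumor age of 35 days. RNA of 2 tumors per group was hybridised, 1 array each. The age of the mice is not given in the sources used here, nor whether the cells were 1 clone or which mouse carried which tumor, so the spread between the 2 arrays of a group may be in part technical.

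The groups overlap in none of the 137 deposited probe sets, with a distance of 1.56-fold or more between their closest arrays. The probe sets are human, while the labels name mouse as the organism; how much host RNA bound to them was not tested. None of the 29 markers looked for, of tumor cells, leukocytes, endothelium, fibroblasts and pericytes, adipocytes or red cells, is in the table, so the labelled cell type could not be checked with them. ZDHHC3, the targeted gene, was at 971 and 854 arbitrary intensity units in the controls and at 240 and 264 units after ablation, the word the labels use, or 27.6% of the control level.

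The products of the 3 genes act at different steps in the life of an mRNA. GEMIN2 is a core subunit of the SMN complex, which loads the ring of Sm proteins onto spliceosomal small nuclear RNAs; it binds Sm proteins directly and holds them until the RNA is bound. RSRP1 is a protein rich in arginine and serine, a composition it shares with the SR family of splicing factors, and its own role is less well described. ZFP36L2 belongs to the tristetraprolin family of zinc finger proteins, which bind AU-rich elements near the ends of mRNAs and recruit the CCR4-NOT deadenylase, so that the bound mRNA loses its poly(A) tail and is degraded.

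GEMIN2, of the machinery that builds spliceosomal particles, was lower in the DHHC3-ablated tumors on both of its probe sets, at 60.7% and 57.3% of the control level. RSRP1 was higher, with 2.41 times the control intensity (a ratio of geometric means, as are all folds here), and so was ZFP36L2, with 1.94 times. The direction was thus not shared by the 3 genes. The groups did not overlap in any of the 4 probe sets, as in 100% of the table, of which 73.7% was higher and 26.3% lower after ablation. Nothing can be read from this about the 3 genes, since they were chosen on this contrast and every probe set of the table separates the groups. In bulk tumor RNA, fewer cells that express a gene and less of its RNA per cell cannot be told apart.

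**Figure D1:**
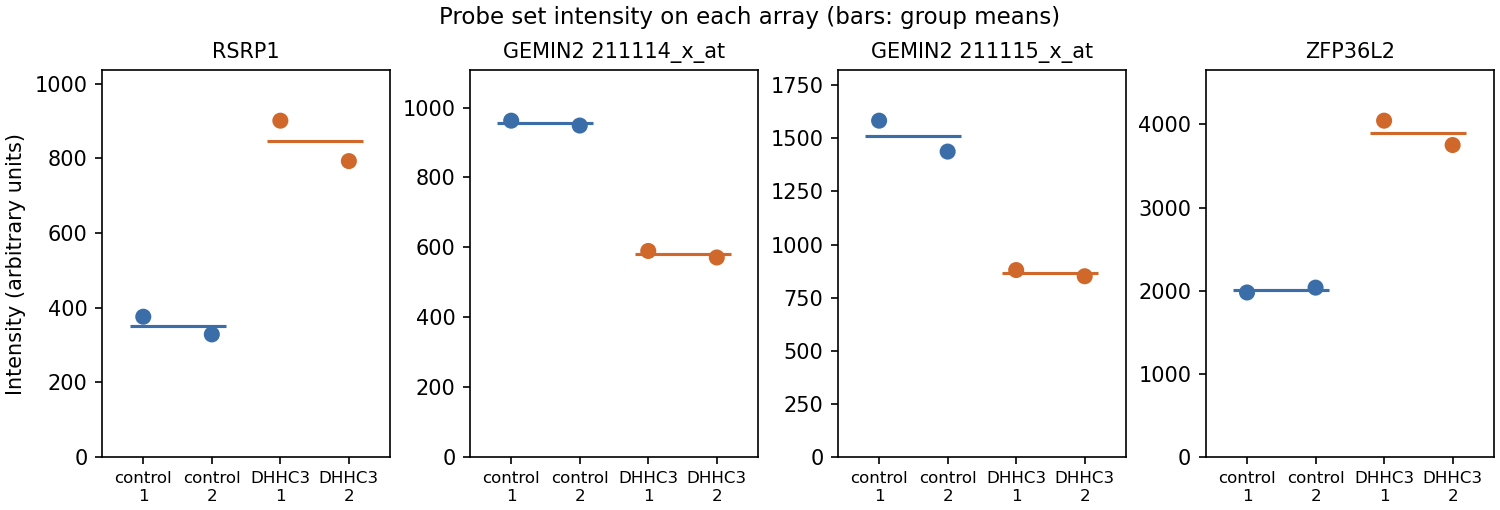
Intensity in arbitrary units (vertical axis, from 0, with its own scale in each panel) on the 2 control shRNA and 2 DHHC3 shRNA arrays, for the RSRP1, GEMIN2 and ZFP36L2 probe sets; points are arrays and horizontal bars are group means. Both DHHC3 arrays lie above both control arrays for RSRP1 and ZFP36L2 and below them for both GEMIN2 probe sets.

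GEMIN2 probe set 211114_x_at gave 962 and 948 units in the control tumors and 589 and 571 units in the DHHC3-ablated tumors. The control mean was 955 ± 9.89 and the mean after ablation 580.0 ± 13.2 (SD, n = 2 each). Both ablated tumors were therefore low, and the arrays within a group lay close together, 1.47% apart in the controls and 3.28% apart after ablation. The difference on the log2 scale was -0.72 ± 0.03 (SE from the 4 arrays). The gap between the nearest arrays of the groups, 0.69 in size on that scale, was 14.8 times the larger of the differences between arrays of one group, the widest margin of the 4 probe sets.

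GEMIN2 probe set 211115_x_at gave 1584 and 1438 units in the control tumors and 880 and 851 units after ablation, with means of 1511 ± 103 and 865 ± 20.6 (SD, n = 2 each). The ablated arrays again lay below both controls, and here the controls were the more spread group, 10.1% apart. The log2 difference was -0.80 ± 0.07 (SE), and the gap between nearest arrays was 5.09 times the larger difference within a group.

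The annotation ties the 2 GEMIN2 probe sets to different mRNA records of the gene. The log2 difference of 211115_x_at minus that of 211114_x_at was -0.08 ± 0.08 (SE). This SE adds the variances of the 2 probe sets as if independent, though both were read on the same 4 arrays. An SE that keeps this pairing was not computed, so the distance is not judged against its error. Without control replicate 1 the distance was -0.02 and without control replicate 2 it was -0.14. Between them the root mean square difference over the 4 arrays, each probe set centred on its own mean, was 0.06 on the log2 scale. Both carry the suffix _x_at, which marks probes that can bind transcripts of other genes, as do 28 of the 137 probe sets (22 higher and 6 lower after ablation). Whether other transcripts contributed to the GEMIN2 signal was not tested, and probe sets of 1 gene on the same arrays are not replicates of each other.

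RSRP1 read 375 and 328 units in the control tumors and 901 and 793 units in the DHHC3-ablated tumors. Its group means were 352 ± 33.5 and 847 ± 76.7 (SD, n = 2 each), and the log2 difference was 1.27 ± 0.13 (SE). Both ablated tumors were high, and every ablated array exceeded every control array by between 2.11-fold and 2.75-fold. RSRP1 was also the most variable of the 4 probe sets between arrays of one group, 14.4% apart in the controls and 13.7% after ablation, and its gap between groups was 5.54 times the larger of these on the log2 scale. It was the only one of the 3 genes past 2-fold, a size that 35.8% of the table reached upwards and 8.03% downwards.

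ZFP36L2 gave 1977 and 2036 units in the control tumors and 4046 and 3752 units in the ablated tumors. The mean went from 2007 ± 41.3 in the controls to 3899 ± 207 after ablation (SD, n = 2 each), a log2 difference of 0.96 ± 0.06 (SE). Both ablated tumors were high, from 1.84-fold to 2.05-fold across the pairs of arrays, so that 2-fold lay inside the range of the pairs; without DHHC3-ablated replicate 2 it was 2.02-fold higher. The controls differed by 2.95% and the ablated arrays by 7.82%, and the gap between groups was 8.12 times the larger of these differences on the log2 scale.

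Set among the rest of the table, the 3 genes were not extreme. RSRP1 was number 23 by size of the 101 probe sets that were higher, and number 12 of the 66 with 1 gene symbol. ZFP36L2 was number 57 of 101, with its 1.94-fold near the median of the higher probe sets, 1.99-fold. The GEMIN2 probe sets were number 27 (211115_x_at) and number 35 (211114_x_at) of the 36 lower ones, with 1.74-fold and 1.65-fold falling under the median of 1.83-fold and close to the smallest downward difference in the table, 1.64-fold.

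**Figure D2:**
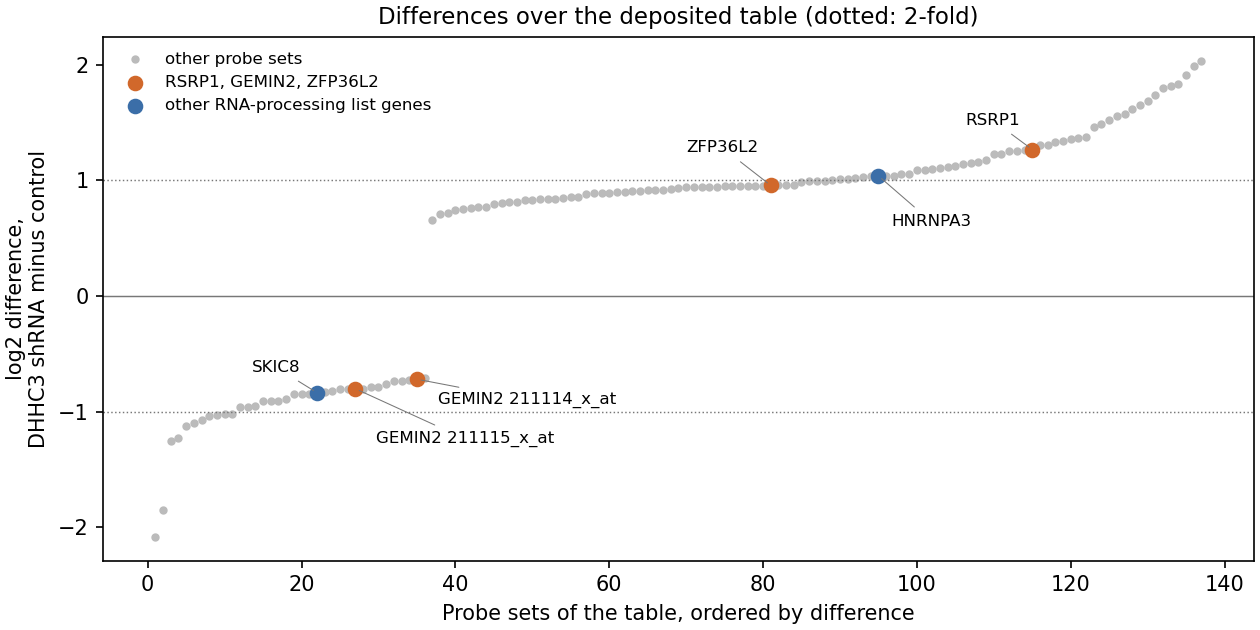
The log2 difference, DHHC3 shRNA minus control (vertical axis), of all 137 probe sets in order of size (horizontal axis), with the RSRP1, GEMIN2 and ZFP36L2 probe sets in orange, HNRNPA3 and SKIC8 in blue and dotted lines at 2-fold. No probe set lies near 0; RSRP1, at 1.27, is among the larger positive values and both GEMIN2 probe sets, at -0.72 and -0.80, are among the smaller negative ones.

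The sizes depended on how the arrays were put on a common scale, and both rescalings tried moved each of the 4 probe sets by more than 1 SD between replicates. The median intensity over the table was 312 and 351 units in the control tumors against 484 and 458 units in the ablated tumors. With 101 probe sets higher and 36 lower after ablation, such a difference in medians follows from the make-up of the table. Both rescalings by design offset this excess, which tends to shrink rises and enlarge falls. Whether the arrays also differed in overall scale was not tested. When arrays were centred on their medians, every log2 difference moved by -0.51, so RSRP1 was 1.69-fold and ZFP36L2 1.36-fold higher while GEMIN2 was 2.34-fold and 2.48-fold lower. The order of the sizes then turned, with GEMIN2 the largest of the 3 and the only one past 2-fold. After quantile normalization over the table the folds were 2.13 for RSRP1, 1.26 for ZFP36L2 and 1.87 and 1.86 for GEMIN2. The direction of each of the 4 probe sets held in both settings, and so did the separation of the groups. For ZFP36L2 the nearest arrays were then only 1.29-fold and 1.17-fold apart. Over the table, the groups did not overlap in 137 of 137 probe sets with centring and in 128 of 137 with quantile normalization. The kept separation is therefore not particular to the 3 genes.

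**Figure D3:**
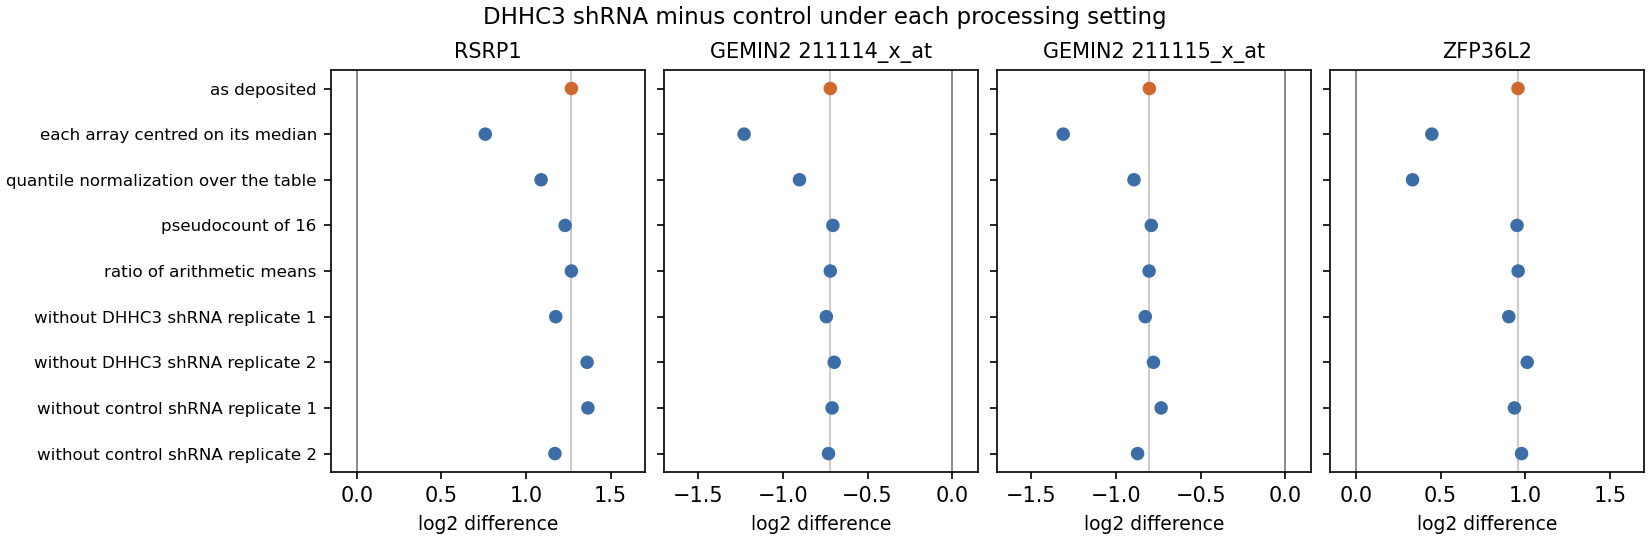
The log2 difference, DHHC3 shRNA minus control (horizontal axis; grey line at the value as deposited, dark line at 0), of each RSRP1, GEMIN2 and ZFP36L2 probe set under each processing setting (rows). Centring and quantile normalization move the points most, ZFP36L2 to 0.45 and 0.33, and no point crosses 0.

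How the wider machinery of splicing and decay fared can be told for few genes only. Of 357 genes in 10 lists of RNA-processing factors and targets, 5 were found in the table, 3 of them being RSRP1, GEMIN2 and ZFP36L2. Only the 101 probe sets with exactly 1 symbol were searched. A list gene on the 7 probe sets with several symbols or the 29 with none would have been missed. Of the 5 genes, 3 were higher and 2 lower after ablation. The median log2 difference was 0.96 over the 5 genes, with the GEMIN2 probe sets averaged, and 0.12 over their 6 probe sets, where GEMIN2 counts once for each of its 2, beside 0.94 over all 137. Nothing is read from these medians, since 3 of the 5 genes were chosen on these values and the genes went both ways. GEMIN2 was the only one of 19 genes for the SMN complex and particle assembly, RSRP1 the only one of 52 SR proteins, SR-related proteins and their kinases, and ZFP36L2 the only one of 26 ZFP36 family and other AU-rich element binding proteins. The lists of Sm and LSm proteins (21 genes), of other spliceosomal particle proteins (41), of the spliceosome core (38), of nonsense-mediated decay with the exon junction complex (22) and of textbook AU-rich mRNAs bound by the ZFP36 family (34) had 0 genes in the table, which shows neither their levels nor whether they differed. A list with 1 gene in the table is not described by that gene.

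The other 2 genes from these lists were HNRNPA3 and SKIC8, which differed in opposite directions. HNRNPA3, a nuclear ribonucleoprotein of the A/B family that binds pre-mRNA and mRNA, read 1700 and 1456 units in the controls and 3353 and 3121 units after ablation, or 2.06-fold higher (log2 difference 1.04 ± 0.12, SE). Both ablated arrays were above both controls, as in each probe set of the 73.7% of the table that was higher. SKIC8, a subunit of the SKI complex that feeds mRNA to the cytoplasmic exosome, read 1416 and 1386 units in the controls and 739 and 833 units after ablation, or 1.79-fold lower (log2 difference -0.84 ± 0.09, SE). Of the listed decay factors found in the table, ZFP36L2 was therefore higher and SKIC8 lower. After median centring HNRNPA3 was 1.44-fold higher and SKIC8 2.54-fold lower.

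The genes whose pattern over the 4 arrays was most like each probe set were found by the root mean square difference of log2 values, each probe set centred on its own mean. Closest to RSRP1 were FAM106A (0.02), the lysine methyltransferase SMYD2 (0.03) and striatin, STRN (0.08). All 3, like RSRP1, were higher in replicate 1 than in replicate 2 of both groups, an order that choosing by closeness favours. The STRN controls barely differed, at 148 and 147 units. Over the table, 77 of 137 probe sets were higher in replicate 1 after ablation, and 73 in the controls. Closest to GEMIN2 211114_x_at were the lysosomal acid lipase LIPA (0.03), the SNARE protein BNIP1 (0.03) and melanoregulin, MREG (0.04). Closest to GEMIN2 211115_x_at were the prolyl hydroxylase EGLN3 (0.04), SMIM27 (0.04) and the ATP synthase subunit ATP5MJ (0.05). Each GEMIN2 probe set was thus nearer to other genes than to its partner, which stood at place 9 and place 6 among the 136 others. Closest to ZFP36L2 were the zinc finger gene ZNF696 (0.03), the endoplasmic reticulum peptidyl-prolyl isomerase FKBP11 (0.03) and the endocytic scaffold ITSN2 (0.04). The comparison rests on 4 arrays in a table where every probe set separates the groups, so it mostly matches genes of the same direction and size.

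**Figure D4:**
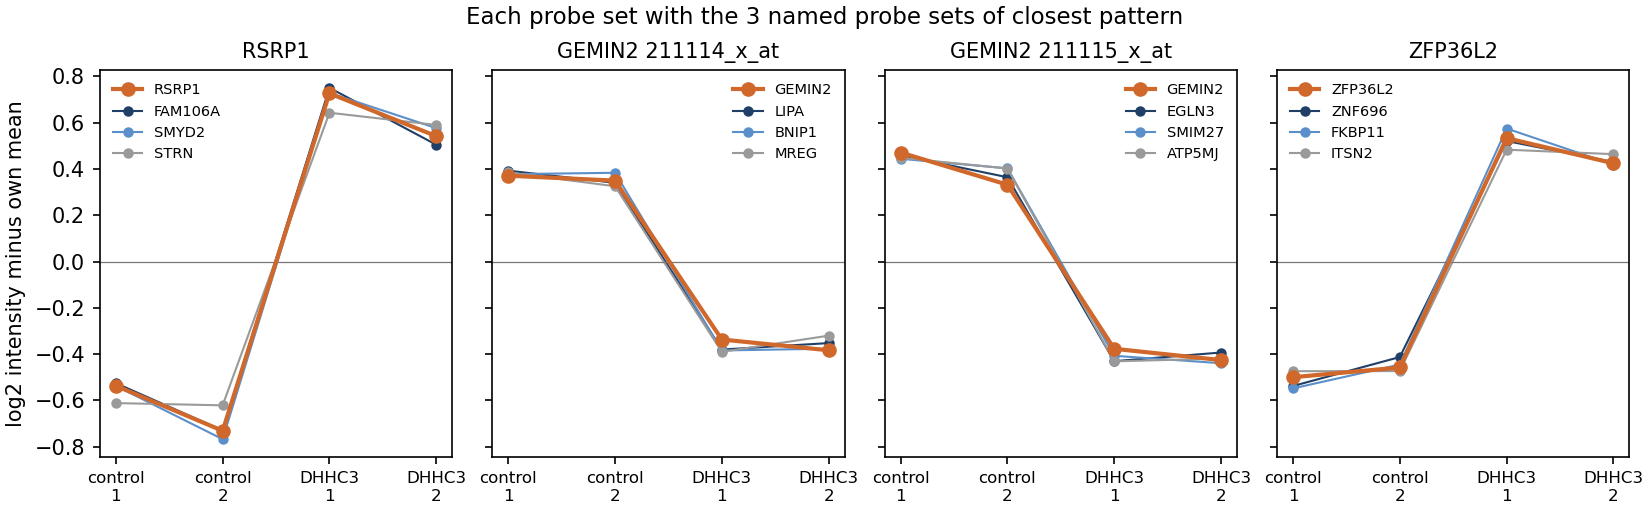
The log2 intensity minus the probe set's own mean (vertical axis) on each of the 4 arrays, for each RSRP1, GEMIN2 and ZFP36L2 probe set (orange) and the 3 named probe sets closest to it; the lines join arrays for reading and imply no order. The curves lie almost on each other, with root mean square differences from 0.02 to 0.08.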

How the data were processed

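The deposited file is 1 table of intensity per probe set (linear, arbitrary units) for 4 arrays. Per the labels' protocols, total tumor RNA was turned into biotin-labelled cRNA. Summarisation, background correction, scaling, detection calls and the rule behind the 137 probe sets are, in the sources used here, not given. 101 probe sets had 1 gene symbol in the platform annotation, 7 several and 29 none. Values were taken to log2 without a pseudocount or further scaling. A difference is the mean of the DHHC3 shRNA arrays minus that of the control arrays, and a fold is the ratio of geometric means. No test was run; with 2 arrays a group, the smallest p of an exact two-sided permutation test is 0.333. Precision is limited by the number of arrays.

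The members and lists were chosen with earlier results of these data known. Named are all member probe sets, ZDHHC3, every list gene in the table, and for each member probe set the 3 closest probe sets with 1 symbol; JMJD6 and RBM12B fall outside this rule and were named after their values were seen. Python 3.11.15, numpy 2.4.6, pandas 2.3.3 and matplotlib 3.10.9 were used. The alternatives were centring, quantile normalization, a pseudocount of 16, arithmetic means, leaving out each array, and leaving out _x_at or unnamed probe sets.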

Additional observations from a re-analysis of the deposited data

How the results depend on the processing

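Of 32 values of the 4 probe sets under 8 alternatives, all 32 kept their direction and 24 stayed within 1 SD between replicates. The other 8 came from the settings that rescale arrays: log2 differences of 0.76 (RSRP1), -1.23 and -1.31 (GEMIN2 211114_x_at and 211115_x_at) and 0.45 (ZFP36L2) with centring, and of 1.09, -0.90, -0.89 and 0.33 with quantile normalization. Both by design offset the excess of higher probe sets in the table, and only these 2 settings could have turned a direction. With groups that do not overlap, the pseudocount, arithmetic means and leaving out an array cannot change a sign. Leaving out 1 of 2 arrays also cannot move a difference by more than this SD. The counts of values that kept direction or stayed within 1 SD are therefore no measure of stability. Without 1 array at a time, RSRP1 lay between 1.17 and 1.37, 211114_x_at between -0.74 and -0.70, 211115_x_at between -0.87 and -0.73 and ZFP36L2 between 0.90 and 1.01, or 1.87-fold to 2.02-fold. The difference between the GEMIN2 probe sets turned from -0.08 to 0.0086 with quantile normalization and lay between -0.14 and -0.02 without 1 array. At least 2-fold higher were 49 probe sets as deposited, 13 with centring, 6 with quantile normalization and 49 to 54 without 1 array; at least 2-fold lower were 11, 36, 32 and 9 to 13. Without _x_at probe sets GEMIN2 drops out, which leaves 1 lower list gene, SKIC8, in place of 2. The rank of RSRP1 was 15 of 101 with the pseudocount and 6 of 98 with quantile normalization. The closest genes were less stable: without 1 array 2 of the 3 were shared for RSRP1, 1 to 3 for either GEMIN2 probe set and 0 to 3 for ZFP36L2 (0 without control replicate 1), and with quantile normalization 0 for RSRP1 and 1 for the others. No fit with the replicate number as a block was made, as no test was run and the labels do not tie same-numbered tumors together; a block would leave the log2 differences as they are. Signal over background is unknown, since the table has no detection calls.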

Other observations

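Besides the listed genes, JMJD6 and RBM12B were picked after their values were seen, for their ties to RNA. JMJD6, an oxygenase that hydroxylates lysines of splicing factors, read 60.3 and 53.6 units in the control tumors and 105 and 114 units after DHHC3 ablation, or 1.92-fold higher. RBM12B, a protein with RNA recognition motifs, read 338 and 288 units in the controls and 579 and 631 units after ablation, or 1.94-fold higher. Both ablated arrays exceeded both control arrays for each gene, as in each probe set of the 73.7% of the table that was higher. The value of JMJD6 depended on the scaling: median centring gave 1.35-fold and quantile normalization 1.04-fold, against 1.36-fold and 1.43-fold for RBM12B.

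Compared by replicate number, RSRP1 differed 2.40-fold between the tumors numbered 1 and 2.42-fold between those numbered 2, while ZDHHC3 differed 4.05-fold and 3.24-fold. GEMIN2 211114_x_at gave 1.63-fold and 1.66-fold, 211115_x_at 1.80-fold and 1.69-fold, and ZFP36L2 2.05-fold and 1.84-fold. Nothing in the labels pairs these tumors, so these values are a description. On the ablated arrays all 4 probe sets were higher in replicate 1 than in replicate 2, as were 77 of the 137 probe sets.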
